A study of Mus musculus with 12 samples.

Results

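Libraries of 3T3-L1 cells at the mitotic clonal expansion (MCE) stage were compared between cells with a hairpin against Fto (shFto) and cells with a control hairpin (shScram). The 4 libraries of the comparison, 2 for each hairpin, were taken from 12 by stage and hairpin, and the other 8 covered the preadipocyte (Pre) and differentiation (Diff) stages of the same lines. 3T3-L1 is a mouse fibroblast line that serves as a preadipocyte model, and all 4 libraries came from post-confluent cultures given the MDI mixture, that is IBMX, dexamethasone and insulin. Each line was a pool of cells kept under puromycin after lentiviral delivery of its short hairpin RNA, so Fto was reduced and not deleted, and the paper's text does not name which of its Fto hairpins was sequenced. The paper describes tailing and sequencing of fragmented total RNA for cells treated with rhein, a plant compound. It gives no separate preparation for the hairpin lines. Transcript abundance was given as TPM, a share of all transcripts corrected for length. Of 55487 genes in the table, 13369 reached 1 TPM in 2 or more of the 4 libraries and were tested. The labels do not say whether the libraries of a group came from separate cultures, so p-values measure only the spread between these libraries, which may be technical. At the Diff stage, used below for comparison, shScram replicate 1 has a treatment entry naming the knockdown. It was grouped by its title, and its Fto level was 73.5 TPM. The shScram libraries of the Pre stage differ from each other, so values at that stage are given as description only.

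Clonal expansion is the stage at which growth-arrested preadipocytes re-enter the cell cycle after hormonal induction and pass through a few rounds of division before the adipocyte genes are switched on. IBMX blocks phosphodiesterases and so raises cAMP, dexamethasone activates the glucocorticoid receptor, and insulin at this dose acts through insulin and IGF1 receptors. Fto encodes an RNA demethylase that removes methyl groups from m6A and from the cap-adjacent m6Am. The hairpins were in the cells before this step, and the comparison asks which genes differ between the lines during it. Lower Fto and other differences between the lines cannot be told apart in this design.

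Fto (ENSMUSG00000055932) lies on the forward strand of chromosome 8 of GRCm38, chr8:91313525-91668439. It measured 59.1 and 55.7 TPM in the shScram libraries and 6.32 and 6.03 TPM in the shFto libraries, so the groups did not overlap. The fall was 3.02 on the log2(TPM + 1) scale (SE 0.092, limma, adjusted p = 1.88e-06). Among 6 genes around it, named after their values were seen, the differences were much smaller. Irx5, a homeobox gene of the neighbouring cluster, measured 5.89 and 6.23 TPM against 9.84 and 13.1 TPM (log2 fold change 0.81, limma, adjusted p = 0.00432). Irx3, from the same cluster, had a log2 fold change of 0.44 (limma, adjusted p = 0.0229). Rpgrip1l, Rbl2, Aktip and Chd9 did not pass the test, with log2 fold changes of -0.18, 0.18, -0.18 and -0.03.

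Fibroblast markers such as Col1a1, Vim and Pdgfrb were present in all 4 libraries, with a summed level of 9303 to 9670 TPM in shScram cells and 9325 to 9801 TPM in shFto cells. All 12 tested markers were nonetheless called, 8 higher and 4 lower, with a median of 0.88. The 6 tested adipocyte markers were all lower. All 9 of that list summed to between 280 and 293.8 TPM in shScram cells and between 81.6 and 91.5 TPM in shFto cells, with Lep, the gene of leptin, listed at 0. Fabp4 alone reached 231 TPM in a shScram library, and only 3 of the markers had a mean of 5 TPM or more. Fewer cells of a type and less RNA per cell cannot be told apart in such bulk samples. Of 11 leukocyte markers, 9 stayed under 1 TPM in all 4 libraries, and Adgre1, Itgam and Cd3e were listed at 0. Their summed level was 6.75 to 7.22 TPM in shScram cells and 49.8 to 50.4 TPM in shFto cells. Most of this came from Cd14, a lipopolysaccharide co-receptor, with 4.39 and 5.35 TPM against 48.4 and 47.6 TPM. All 9 endothelial markers were under 1 TPM, as were 8 of 9 epithelial, 7 of 8 skeletal myoblast and 7 of 9 neural markers. The part of such cells in the results was not tested.

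In shFto cells 4114 genes were higher (30.8% of those tested) and 2556 were lower (19.1%) at an adjusted p under 0.05 (limma). Past a 2-fold change, 822 were higher (6.15%) and 651 lower (4.87%), and past 4-fold 147 were higher and 101 lower. Many calls were of small size, since 3154 genes, 47.3% of those called, changed by less than 1.5-fold. The median size of the log2 fold change over all genes was 0.33, against a median difference of 0.14 between the shScram libraries and 0.083 between the shFto libraries. The balance of directions depended on how the libraries were scaled. Lower genes made up 38.3% of the calls as deposited, 49.5% after median-ratio scaling, 49.1% after quantile normalization and 49.5% after a correction for GC content. Over all 12 libraries in one fit, 1742 genes were called higher and 1178 lower, and without shFto replicate 1 the counts were 2546 and 1700, without replicate 2 2589 and 1611. The 12 libraries include the shScram Pre pair, whose libraries differ from each other. Over the 8 MCE and Diff libraries, 4091 genes were called higher and 2541 lower. A share of 30.8% higher and 19.1% lower is the background for every list below.

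**Figure D1:**
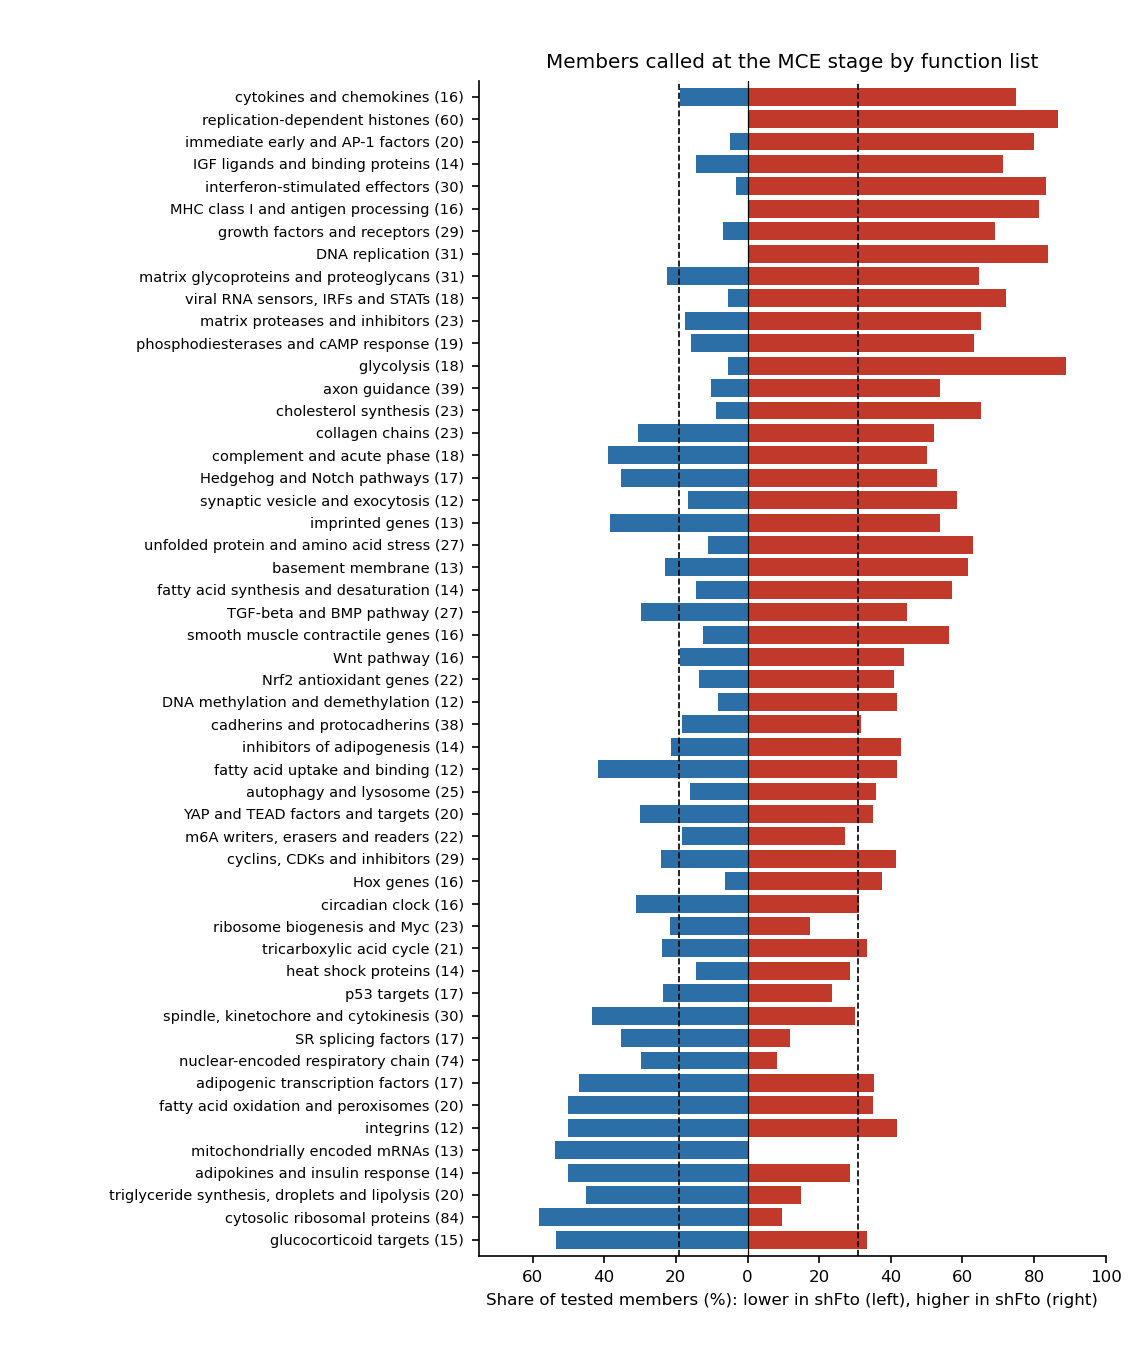
Share of tested members of each gene list called higher (bars to the right) or lower (bars to the left) in shFto cells at the MCE stage, in percent, for the 52 lists with at least 12 tested members, ordered by median log2 fold change and with the number tested in brackets. Dashed lines mark the shares over all tested genes, 30.8% and 19.1%. Glycolysis, replication-dependent histones, DNA replication and interferon-stimulated effectors reach furthest to the right, and the ribosomal proteins to the left.

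Promoters are shown for members of the interferon, replication and contractile lists described next, because a sequence motif was counted over these lists. Each is the RefSeq window from 250 bases before to 50 bases after the annotated start on GRCm38.p6, and capitals mark the motif on either strand. Ifit1 (chr19:34640639-34640938, forward strand) and Isg15 (chr4:156200769-156201068, reverse strand) hold GAAANNGAA, the core of the element bound by interferon-activated factors, first at -103 and -78 from the start.
Ifit1: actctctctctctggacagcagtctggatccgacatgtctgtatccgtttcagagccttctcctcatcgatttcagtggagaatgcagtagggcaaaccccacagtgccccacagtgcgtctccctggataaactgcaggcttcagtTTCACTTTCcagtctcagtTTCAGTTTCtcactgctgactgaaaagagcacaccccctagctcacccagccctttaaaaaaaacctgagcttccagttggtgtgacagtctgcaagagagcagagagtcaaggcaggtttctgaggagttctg
Isg15: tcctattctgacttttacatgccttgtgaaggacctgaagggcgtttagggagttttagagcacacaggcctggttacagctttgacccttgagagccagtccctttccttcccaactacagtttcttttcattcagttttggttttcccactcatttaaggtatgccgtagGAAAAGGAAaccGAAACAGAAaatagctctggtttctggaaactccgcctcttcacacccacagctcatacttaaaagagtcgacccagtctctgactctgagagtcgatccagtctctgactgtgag
Mcm3 (chr1:20820263-20820562, reverse strand) and Mcm6 (chr1:128359656-128359955, reverse strand) hold TTTGGCGC or TTTCCCGC, the classical E2F elements, first at 19 and -110.
Mcm3: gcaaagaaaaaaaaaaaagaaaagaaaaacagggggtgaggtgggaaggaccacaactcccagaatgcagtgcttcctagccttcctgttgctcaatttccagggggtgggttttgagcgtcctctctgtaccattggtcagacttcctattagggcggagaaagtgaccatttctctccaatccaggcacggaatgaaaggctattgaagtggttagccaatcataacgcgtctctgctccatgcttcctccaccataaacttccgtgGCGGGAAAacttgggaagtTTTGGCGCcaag
Mcm6: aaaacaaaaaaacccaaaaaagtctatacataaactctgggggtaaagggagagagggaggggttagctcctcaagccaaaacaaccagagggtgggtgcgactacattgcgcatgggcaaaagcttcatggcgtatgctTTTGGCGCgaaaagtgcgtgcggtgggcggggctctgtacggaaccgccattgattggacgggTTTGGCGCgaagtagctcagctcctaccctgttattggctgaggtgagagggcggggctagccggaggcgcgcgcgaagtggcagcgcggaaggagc
Myl9 (chr2:156775214-156775513, forward strand) holds a CArG box, the element of serum response factor, at -161.
Myl9: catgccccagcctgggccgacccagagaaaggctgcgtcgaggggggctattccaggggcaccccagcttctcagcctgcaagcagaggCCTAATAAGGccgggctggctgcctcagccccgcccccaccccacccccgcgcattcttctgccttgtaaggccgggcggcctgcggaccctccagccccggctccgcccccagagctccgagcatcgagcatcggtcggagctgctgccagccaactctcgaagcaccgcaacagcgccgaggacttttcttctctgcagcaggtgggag

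GAAANNGAA was found in 17 of 25 promoters of the interferon-stimulated effectors (68%), against 9.76% of all 27025 promoters and 8.61% of the 9492 of tested genes. TTTGGCGC or TTTCCCGC was found in 10 of 26 DNA replication promoters (38.5%), against 1.80% of all and 3.57% of those tested. The CArG box was found in 5 of 16 promoters of smooth muscle contractile genes (31.3%), against 1.81% and 1.55%. TGANTCA, the AP-1 element, was found in 5 of 18 promoters of matrix proteases and inhibitors (27.8%), against 8.97% and 6.08%. These shares describe the lists and not the change. Among promoters of members that rose past 2-fold, the motif was in 8 of 13 interferon, 4 of 7 replication, 1 of 2 contractile and 0 of 3 protease and inhibitor promoters.

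Genes of S phase were higher in shFto cells at this stage. Of 60 tested replication-dependent histone genes, which are transcribed when DNA is copied, 52 rose, 40 of them past 2-fold, and none fell, with a median log2 fold change of 1.27 against 0.084 over all genes. H3c11 measured 8.01 and 3.22 TPM in shScram cells and 43.6 and 35.8 TPM in shFto cells (log2 fold change 2.72, SE 0.31, limma, adjusted p = 0.000437). H2ac13 measured 3.96 and 4.49 TPM against 29.5 and 23.7 TPM, and Hist1h4m 14.2 and 11.1 TPM against 60.1 and 67.5 TPM. In each case both shFto libraries lay well above both shScram libraries. Together the histone genes took 0.0781% and 0.0681% of all TPM in shScram cells and 0.187% and 0.183% in shFto cells. Histone genes are near-identical copies of each other and reads may be split among them, so the values of single members are uncertain. Their mRNAs lack a poly(A) tail, so their measured level also depends on the RNA preparation, which the paper does not give for these lines.

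The DNA replication machinery moved the same way. Of 31 tested genes 26 rose, 7 of them past 2-fold, none fell, and the median was 0.67. Rrm2, the regulatory subunit of ribonucleotide reductase that supplies deoxynucleotides, measured 56.4 and 57.4 TPM against 169 and 161 TPM (log2 fold change 1.52, SE 0.063, limma, adjusted p = 6.71e-06). The replicative helicase subunits Mcm5, Mcm6 and Mcm3, whose promoters are shown above for Mcm6 and Mcm3, rose by 1.16, 1.02 and 1.01. Mcm3 measured 66.9 and 66.0 TPM against 140 and 130 TPM, and the groups did not overlap. Pcna, the sliding clamp of the DNA polymerases, measured 180 and 160 TPM against 313 and 329 TPM. Fen1, which trims Okazaki fragments, rose by 1.17. Ccne1, the cyclin that drives entry into S phase, measured 14.6 and 18.3 TPM against 51.9 and 53.1 TPM (log2 fold change 1.63), and E2f1, a transcription factor of the same step, rose by 0.86. Ccnd1, the G1 cyclin, went the other way, from 185 and 168 TPM to 61.2 and 58.0 TPM (log2 fold change -1.55, SE 0.073, limma, adjusted p = 9.26e-06). With all 12 libraries fitted together, 44 histone genes and 19 replication genes were called higher, and E2f1 did not pass.

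Genes of mitosis did not follow those of S phase. Of 30 spindle, kinetochore and cytokinesis genes 9 rose and 13 fell, none past 2-fold, and the median was -0.06. Cdc20, an activator of the anaphase-promoting complex, measured 130 and 142 TPM in shScram cells and 71.1 and 68.1 TPM in shFto cells (log2 fold change -0.96, SE 0.072, limma, adjusted p = 6.52e-05). From the list of cyclins, the mitotic Ccnb1 and Ccnb2 fell by 0.62 and 0.69, and Cenpe, a kinetochore motor, by 0.85. The list of cyclins, CDKs and inhibitors was mixed, with 12 of 29 tested genes higher, 7 lower and a median of 0.052. Its counts were 7 and 3 in the 12-library fit. Aurkb, a kinase of the chromosomal passenger complex, was among the spindle list members that rose, from 46.1 and 45.4 TPM to 82.7 and 74.5 TPM. Cdc20 overlaps an exon of Elovl1 on the other strand, and use of strand in counting is not stated in the sources used here. Over all 12 libraries 1 spindle gene was called higher and 4 lower, and Cdc20 and Cenpe were not called. The counts were 4 higher and 11 lower without shFto replicate 1, and 5 and 9 without replicate 2.

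The spindle list also had the largest share of genes, 26 of 30, whose shFto effect differed between the MCE and Diff stages by the interaction test, against 19.6% of all tested genes. Its median was 0.90 at the Diff stage. Ccnb2 had a log2 fold change of -0.69 at MCE and 1.33 at Diff (difference -2.02, limma interaction, adjusted p = 2.7e-05). Cdc20 had -0.96 and 0.90 (difference -1.86, limma interaction, adjusted p = 4.6e-05). For the replication list 14 of 31 genes differed between the stages, and the median was 0.25 at the Diff stage. Pcna, with 0.91 at the MCE stage, had 0.04 at the Diff stage (limma interaction, adjusted p = 0.0024). The stages share no library. The number of genes with an interaction was 2623, and it was 280 over all 12 libraries and 2472 without the shScram Diff library whose labels disagree. It was 1357 and 1361 without shFto replicate 1 or 2 of the MCE stage and 1455 and 1715 without shFto replicate 1 or 2 of the Diff stage.

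**Figure D2:**
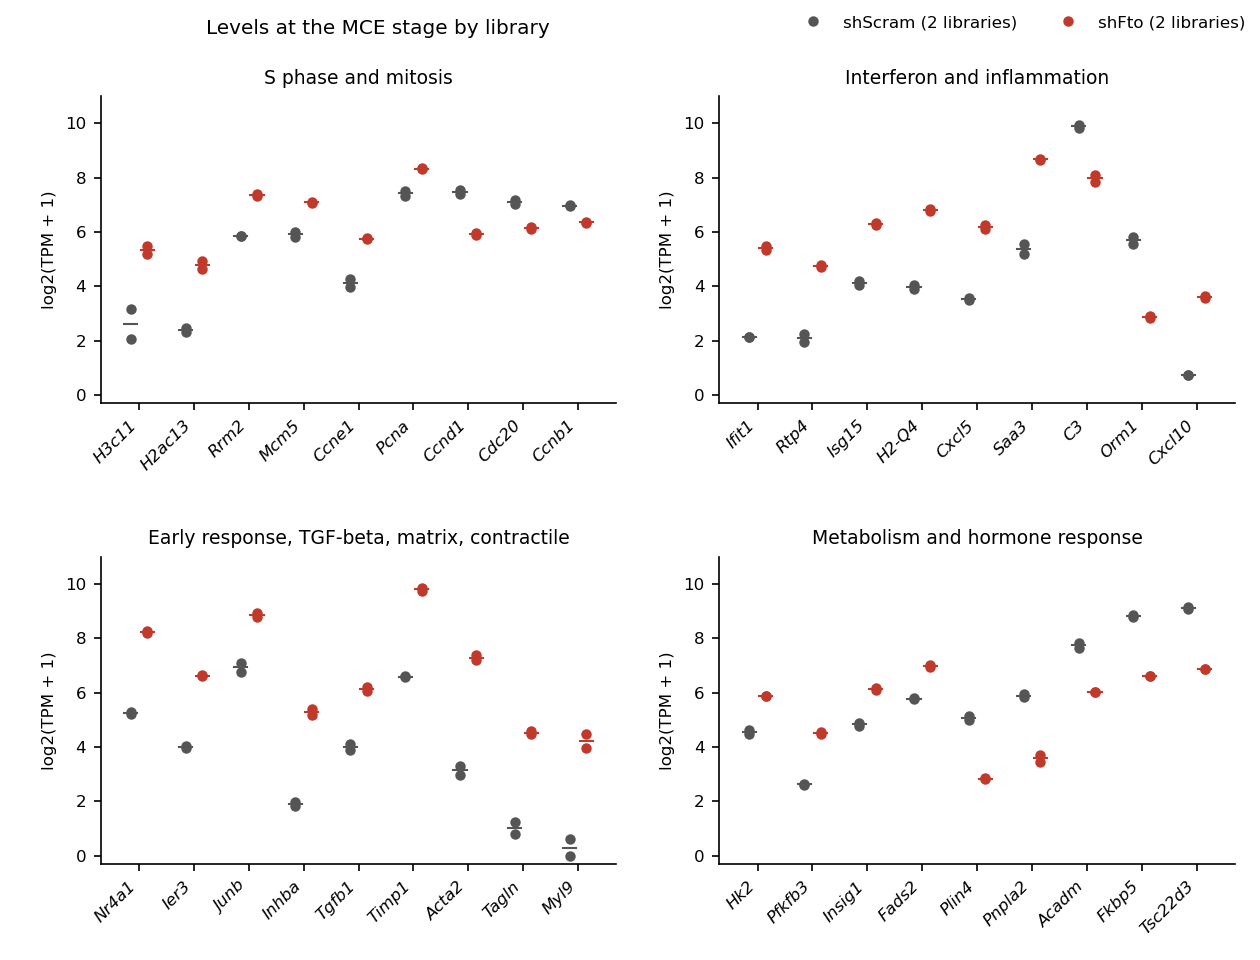
Level of 36 genes in each of the 4 MCE libraries on the log2(TPM + 1) scale, in 4 panels by function, with grey points for the shScram libraries, red points for the shFto libraries and a short line at each mean. The libraries of a line lie close together for most genes. For Acta2, Inhba, Saa3, Ifit1, Tagln and Myl9 the shFto libraries lie over 3 units above the shScram libraries.

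Interferon-stimulated genes were higher in shFto cells. These genes encode antiviral proteins and are switched on by STAT and IRF factors when interferon binds its receptor. Of 30 tested effectors 25 rose, 17 of them past 2-fold, and Ifi35 alone fell, with a median of 1.10 at the MCE stage, 0.0030 at the Pre stage and 1.21 at the Diff stage. Ifit1, an inhibitor of viral RNA translation, measured 3.39 and 3.37 TPM against 39.2 and 43.4 TPM (log2 fold change 3.27, SE 0.11, limma, adjusted p = 2.62e-06). Isg15, a ubiquitin-like modifier, measured 15.4 and 17.2 TPM against 79.8 and 75.0 TPM, and the receptor chaperone Rtp4 3.75 and 2.89 TPM against 26.8 and 25.5 TPM. The values of the lines were far apart for all 3 genes. Rsad2, the antiviral protein viperin, was near 0 in shScram cells, at 0.0452 and 0.141 TPM, and at 5.76 and 6.35 TPM in shFto cells. Ifi35 measured 44.5 and 42.7 TPM against 30.9 and 29.2 TPM. Ifit3 rose by 2.18, but it has a near-identical copy and is uncertain. In the 12-library fit 22 effectors were called higher and 0 lower, without Ifi35.

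The factors and sensors upstream of these genes shifted less. Of 18 tested sensors, IRFs and STATs 13 rose, 6 past 2-fold, and the median was 0.64. Stat2 measured 17.1 and 15.0 TPM against 46.4 and 49.0 TPM (log2 fold change 1.51, SE 0.094, limma, adjusted p = 3.03e-05), and Irf9, its partner, rose by 1.09. Mavs, the mitochondrial adaptor of RNA sensing, was the member that fell, by 0.57, and it was not called over all 12 libraries. MHC class I and antigen processing genes, which load peptides for T cells, rose in 13 of 16 cases with a median of 0.83, and none fell. Psmb8, a subunit of the immunoproteasome, measured 1.97 and 3.14 TPM against 14.6 and 20.3 TPM. H2-Q4 measured 13.9 and 15.7 TPM against 109 and 113 TPM, a value that is uncertain because class I genes are close copies.

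Of 16 tested cytokine and chemokine genes 12 rose, 10 of them past 2-fold, and 3 fell, with a median of 1.46. Cxcl5, which attracts neutrophils, measured 10.8 and 10.2 TPM against 75.4 and 67.9 TPM (log2 fold change 2.65, SE 0.09, limma, adjusted p = 3.01e-06). Cxcl10, an interferon-induced chemokine, measured 0.651 and 0.655 TPM against 10.9 and 11.4 TPM. Il6 and Lif, cytokines that signal through gp130, rose by 2.22 and 2.49, and Il33, an alarmin, by 2.46. Il6 was uneven in shScram cells, at 0.806 and 2.03 TPM, but both shFto libraries, at 9.27 and 10.6 TPM, lay above them. The 3 lower genes, Il1rn, Csf1 and Cx3cl1, lost their call in the fit over all 12 libraries, where 12 were higher and 0 lower.

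Complement and acute phase genes split into opposite groups. Of 18 tested genes 9 rose and 7 fell, 7 and 4 of them past 2-fold. Saa3, an acute phase apolipoprotein, measured 35.6 and 46.4 TPM in shScram cells and 403 and 407 TPM in shFto cells (log2 fold change 3.29, SE 0.12, limma, adjusted p = 3.32e-06). Hp, which binds free haemoglobin, measured 22.1 and 28.6 TPM against 182 and 187 TPM. Complement components were among the genes that fell. C3, the central protein of the cascade, measured 984 and 903 TPM against 275 and 230 TPM (log2 fold change -1.90, SE 0.094, limma, adjusted p = 1.13e-05). Of the orosomucoid genes, Orm1 fell by 2.83, and Orm3, which is not in this list, fell by 4.07. Both are close copies and their values are uncertain.

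Immediate early genes, which respond to growth factors and cAMP within minutes, were higher in shFto cells. Of 20 tested genes 16 rose, 11 past 2-fold, and Klf6 fell, with a median of 1.20. The nuclear receptor Nr4a1 measured 35.8 and 38.0 TPM in shScram cells and 295 and 310 TPM in shFto cells (log2 fold change 3.00, SE 0.067, limma, adjusted p = 1.1e-06). Nr4a2 measured 3.09 and 2.05 TPM against 26.2 and 30.0 TPM, and Ier3, an apoptosis-related early gene, 14.7 and 15.4 TPM against 99.2 and 96.9 TPM. The log2 fold change at the Diff stage was 0.39 for Nr4a1 (limma interaction, adjusted p = 2.5e-05) and 1.26 for Nr4a2 (limma interaction, adjusted p = 0.0012). Junb, an AP-1 subunit, measured 108 and 136 TPM against 445 and 483 TPM. Jun, another subunit, measured 145 and 133 TPM against 162 and 155 TPM and did not pass the test (log2 fold change 0.18, limma, adjusted p = 0.0592). Junb and Jun overlap genes on the other strand. The 12-library fit called 11 members higher, without Junb.

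Genes that act in cAMP breakdown and response, the pathway that IBMX engages, were also higher. Of 19 tested genes 12 rose, 7 past 2-fold, and 3 fell, with a median of 0.58, and the counts were 7 and 0 over all 12 libraries. Pde10a, which hydrolyses cAMP and cGMP, measured 3.12 and 4.31 TPM against 29.5 and 29.8 TPM. Pde1a, a calcium-regulated phosphodiesterase, measured 49.9 and 49.1 TPM against 172 and 174 TPM (log2 fold change 1.78, SE 0.061, limma, adjusted p = 3.09e-06). Crem, a cAMP-responsive transcription factor, rose by 1.73.

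Classical glucocorticoid targets, which dexamethasone induces, fell more often than they rose. Of 15 tested genes 8 fell and 5 rose, 3 and 2 of them past 2-fold. The median was -0.67 here and -0.13 at the Diff stage. The summed level of all 17 listed genes went up. It was 6353 and 6634 TPM in shScram cells and 8004 and 7780 TPM in shFto cells. Tsc22d3, which encodes GILZ, measured 569 and 546 TPM in shScram cells and 118 and 115 TPM in shFto cells (log2 fold change -2.25, SE 0.059, limma, adjusted p = 1.58e-06). Fkbp5, a cochaperone of the receptor, measured 458 and 439 TPM against 96.8 and 95.9 TPM, and Glul, glutamine synthetase, 370 and 380 TPM against 95.4 and 93.6 TPM. The libraries of each line agreed closely for these genes. Their log2 fold changes at the Diff stage were nearer to 0, at -0.97, -1.32 and -0.53, with differences between the stages past the interaction threshold (limma, adjusted p = 2.9e-05, 0.00052 and 2.5e-05). Nr3c1, the glucocorticoid receptor, measured 34.6 and 33.3 TPM against 21.4 and 20.5 TPM. Rgs2, a regulator of G protein signalling, and the metallothionein Mt2 were among the members that rose, both by 1.19, and 3 higher, without Mt2, and 7 lower genes were called over all 12 libraries.

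Growth factor genes were higher more often than lower. Of 29 tested growth factors and receptors 20 rose and 2 fell, with a median of 0.72, and 13 and 2 were called in the 12-library fit. Hgf, the ligand of the receptor Met, measured 40.6 and 41.7 TPM against 144 and 143 TPM, and Fgf7 rose by 1.62. The 2 members that fell were Kitl, the stem cell factor, from 59.0 and 44.7 TPM to 7.92 and 7.29 TPM, and Fgfr2, from 70.8 and 64.5 TPM to 15.1 and 16.5 TPM. Of 14 IGF ligands and binding proteins 10 rose, 8 past 2-fold, and 2 fell. Igfbp3, the main carrier of IGFs in serum, was listed at 0 and 0.0838 TPM in shScram cells and at 13.9 and 14.5 TPM in shFto cells. Igfbp6 moved the opposite way, from 138 and 133 TPM to 16.2 and 14.9 TPM (log2 fold change -3.05, SE 0.077, limma, adjusted p = 1.41e-06). Pappa, a protease that cleaves IGF binding proteins, rose by 1.84. In the Diff libraries Igfbp6 had a log2 fold change of -0.44 (limma interaction, adjusted p = 2.5e-05).

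In the TGF-beta and BMP pathway 12 of 27 tested genes rose and 8 fell, 9 and 5 of them past 2-fold, and 12 and 5 were called in the 12-library fit. Among the ligands, Inhba, the activin A subunit, measured 2.56 and 2.97 TPM against 35.2 and 41.3 TPM (log2 fold change 3.38, SE 0.13, limma, adjusted p = 4.58e-06). Tgfb1 measured 13.9 and 16.4 TPM against 66.6 and 72.3 TPM, while Tgfb2 fell by 1.74. The co-receptor Tgfbr3 and the activin antagonist Fst fell by 1.54 and 1.34. For Tgfb1 and Inhba the lowest shFto library lay above the highest shScram library.

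Some genes of the smooth muscle contractile apparatus had very large rises. Of 16 tested genes 9 rose and 2 fell, 4 and 1 past 2-fold, and the median was 0.32. In the 12-library fit 6 rose and 1 fell. Acta2, smooth muscle actin, measured 8.93 and 6.90 TPM in shScram cells and 165 and 145 TPM in shFto cells (log2 fold change 4.14, SE 0.12, limma, adjusted p = 1.83e-06). Myl9, the regulatory light chain whose promoter is shown above, measured 0 and 0.525 TPM against 21.3 and 14.6 TPM. Tagln, an actin-binding protein, measured 1.36 and 0.741 TPM against 23 and 21.3 TPM, and it overlaps Pcsk7 on the other strand. Mylk, the kinase of the light chain, fell from 18.6 and 14.7 TPM to 7.27 and 6.60 TPM. The log2 fold changes were smaller at the Diff stage, at 1.60 for Acta2 and 1.33 for Myl9 (limma interaction, adjusted p = 6.4e-05 and 0.0016).

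Matrix genes were among the most changed. Of 31 tested matrix glycoproteins and proteoglycans 20 rose and 7 fell, 11 and 2 past 2-fold, with a median of 0.65. Tnc, a glycoprotein of remodelling tissue, measured 7.96 and 7.32 TPM against 131 and 128 TPM (log2 fold change 3.92, SE 0.081, limma, adjusted p = 9.87e-07). Sparc, a collagen-binding protein, measured 592 and 567 TPM against 2399 and 2364 TPM. Fn1, fibronectin, was lower, with 2767 and 2455 TPM against 1946 and 1741 TPM (log2 fold change -0.50). The lower calls of the list were 4 without shFto replicate 2 and 3 in the 12-library fit, where Fn1 was still called. Mgp, an inhibitor of calcification that stands here among the progenitor markers, fell from 368 and 345 TPM to 36.0 and 27.2 TPM.

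Of 23 tested collagen chains 12 rose, 8 past 2-fold, and 7 fell, none past 2-fold. The fibrillar chain Col3a1 measured 859 and 747 TPM against 2915 and 2647 TPM. Col12a1, which links fibrils, measured 1.13 and 0.943 TPM against 33.3 and 30.8 TPM, and the transmembrane collagen Col23a1 0.213 and 0.0493 TPM against 16.7 and 20.1 TPM. Col23a1 was near absent from shScram cells. Col6a1 fell from 2898 and 2852 TPM to 1832 and 1730 TPM. With all 12 libraries fitted, 8 chains were called higher and 1 lower. Among 23 matrix proteases and inhibitors 15 rose and 4 fell, with a median of 0.64. Timp1 measured 94.4 and 97.0 TPM against 856 and 931 TPM, whereas Timp2, another inhibitor of metalloproteinases, fell by 1.16.

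Axon guidance genes, whose products steer growing neurites and also act between mesenchymal cells, rose in 21 of 39 cases and fell in 4, with a median of 0.51. Slit3, a secreted ligand of the Robo receptors, measured 4.54 and 3.71 TPM in shScram cells and 94.5 and 84.2 TPM in shFto cells (log2 fold change 4.14, SE 0.11, limma, adjusted p = 1.79e-06). Its log2 fold change was 4.17 at the Pre stage and 4.19 at the Diff stage. Sema7a, a membrane-anchored semaphorin, rose by 2.54.

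**Figure D3:**
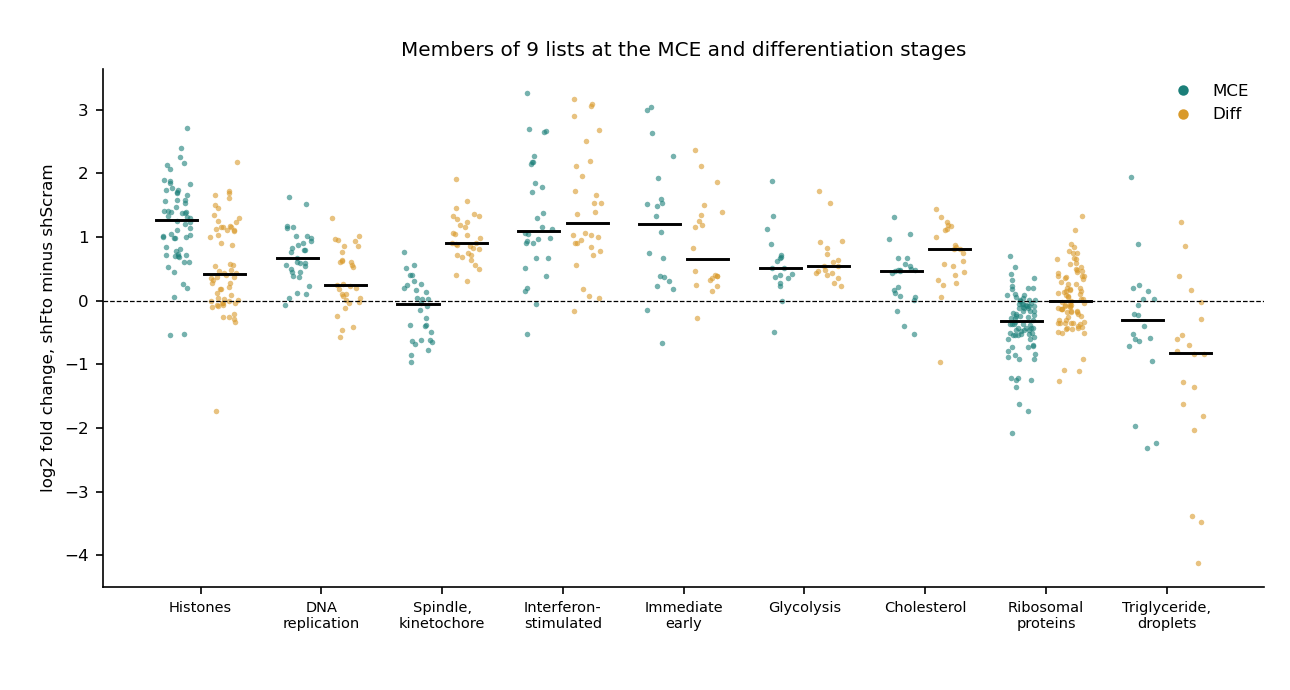
Log2 fold change (shFto over shScram, log2(TPM + 1) scale) of each tested member of 9 lists at the MCE and Diff stages, with a point per gene and a bar at the median. The spindle list moves from a median of -0.06 to 0.90, the histone list from 1.27 to 0.42, and the interferon list has medians of 1.10 and 1.21, with an interaction for 10 of its 30 genes.

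Glycolytic genes rose almost as a whole but by small amounts. Of 18 tested genes 16 rose, 3 past 2-fold, and 1 fell, with a median of 0.51, and together they took 1.45% and 1.54% of all TPM in shScram cells and 2.19% and 2.15% in shFto cells. Hk2, the hexokinase of the first step, measured 21.3 and 23.8 TPM against 57.9 and 58.1 TPM (log2 fold change 1.33, SE 0.084, limma, adjusted p = 3.22e-05). Pfkfb3, which makes the activator of phosphofructokinase, measured 5.08 and 5.30 TPM against 21.1 and 22.5 TPM, and Slc2a1, the basal glucose transporter, 65.4 and 72.8 TPM against 187 and 188 TPM. Gapdh, often used as a reference gene, measured 3076 and 3088 TPM against 5058 and 4905 TPM. Of 21 genes of the tricarboxylic acid cycle 7 rose and 5 fell, none past 2-fold, with 3 and 1 without shFto replicate 1, 5 and 2 without replicate 2, and 1 and 1 in the 12-library fit. The calls of small size depended on the libraries in the fit, and over all 12 libraries 5 glycolytic genes were called higher and 0 lower.

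Of 23 cholesterol synthesis genes 15 rose and 2 fell, with a median of 0.47, against -0.60 at the Pre stage and 0.80 at the Diff stage. Insig1, which holds back the SREBP pathway, measured 28.6 and 26.6 TPM against 71.5 and 68.2 TPM. Hmgcs1, an early enzyme, rose by 0.66. In the 12-library fit 6 genes were called higher and 0 lower. Of 14 fatty acid synthesis and desaturation genes 8 rose and 2 fell, or 4 and 2 in the 12-library fit, and Fads2, a desaturase, measured 54.5 and 53.3 TPM against 128 and 122 TPM.

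Genes of lipid storage and use were divided. Of 20 tested genes of triglyceride synthesis, droplets and lipolysis 9 fell and 3 rose, with a median of -0.31 here and -0.81 at the Diff stage. Pnpla2, the lipase ATGL, measured 60.5 and 56.4 TPM in shScram cells and 10.0 and 12.1 TPM in shFto cells (log2 fold change -2.31, SE 0.11, limma, adjusted p = 9.01e-06). Plin4, a droplet coat protein, measured 34.4 and 31.1 TPM against 6.02 and 6.30 TPM. Hilpda, a lipolysis inhibitor, was a member that rose, from 24.0 and 32.2 TPM to 105 and 114 TPM. Of 20 genes of fatty acid oxidation and peroxisomes 10 fell and 7 rose, and Acadm, the medium-chain acyl-CoA dehydrogenase, measured 229 and 199 TPM against 64.9 and 64.4 TPM. Of 12 genes of fatty acid uptake and binding 5 rose and 5 fell, with a median of 0.17, and 3 rose without either shFto library. Lpl, which frees fatty acids from lipoproteins, rose at this stage, from 92.4 and 77.1 TPM to 196 and 199 TPM, and had a log2 fold change of -0.21 at the Diff stage (limma interaction, adjusted p = 0.00013). Over all 12 libraries the triglyceride counts were 6 lower and 1 higher, the uptake counts 4 and 3 and the oxidation counts 5 and 2, and the last were 6 and 4 without either shFto library.

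Adipogenic transcription factors were mixed, with 6 of 17 higher and 8 lower, or 3 and 5 in the 12-library fit. Rxra, the partner of PPAR-gamma, measured 166 and 157 TPM against 59.9 and 58.8 TPM (log2 fold change -1.43, SE 0.065, limma, adjusted p = 8.28e-06). Zfp423, a preadipocyte commitment factor, measured 0.451 and 0.442 TPM against 5.08 and 4.74 TPM. Among 14 inhibitors of adipogenesis 6 rose and 3 fell, with 3 higher in the 12-library fit and without either shFto library. Dlk1, a preadipocyte surface protein, measured 1182 and 1106 TPM against 484 and 431 TPM. Dlk1 had a log2 fold change of 0.08 at the Diff stage (limma interaction, adjusted p = 7.1e-05). The median of the inhibitors list changed sign after the GC correction, but not after median-ratio scaling or quantile normalization. Those of 8 other lists, with medians within 0.092 of 0, changed sign under some of the scalings. Among them were the cyclin, circadian and Hox lists.

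Cytosolic ribosomal protein mRNAs made up a smaller share of the transcripts in shFto cells. They took 17.9% and 18.8% of all TPM in shScram cells and 14.8% and 15.3% in shFto cells, and 49 of 84 tested genes fell, 8 rose and the median was -0.32. Rpl41 measured 6008 and 6168 TPM against 3367 and 3350 TPM (log2 fold change -0.86, SE 0.071, limma, adjusted p = 0.000105). Rps28 was uneven between the shScram libraries, at 2765 and 3712 TPM, with 1511 and 1255 TPM in shFto cells. Rps13 was among the members that rose, from 1207 and 972 TPM to 1763 and 1748 TPM. At the Diff stage the median was -0.0090. In the 12-library fit 19 members were called lower and 0 higher, without Rps28 and Rps13.

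Processed pseudogenes, intronless copies of mRNAs that can take up reads of their parent genes, went down as well. Of 737 tested 345 were lower and 91 higher, with a median of -0.48, and among 107 with a ribosomal protein symbol 72 were lower and 10 higher, with a median of -0.76. The reads of ribosomal protein genes and their copies cannot be fully separated, so single members are uncertain. Length was taken as that of the longest annotated transcript of a gene, and the transcript expressed here may be shorter. By this length, the 540 protein-coding genes under 1 kb had 158 higher and 151 lower, with a median of -0.0068. The medians were 0.14 from 1 to 2 kb, 0.13 from 2 to 4 kb and 0.096 at 4 kb or more. Without ribosomal protein and respiratory chain genes those under 1 kb had 152 higher and 121 lower, with a median of 0.036. The median of this length was 1076.5 bases for the ribosomal protein list. It was 532 bases for the histone list, whose median log2 fold change was 1.27.

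Of 74 nuclear-encoded respiratory chain genes 22 fell and 6 rose, with a median of -0.15, and Cox6c, a subunit of cytochrome c oxidase, measured 439 and 462 TPM against 206 and 220 TPM. Of 13 mitochondrially encoded mRNAs 7 fell and 0 rose by limma, with a median of -0.24, and mt-Co1 measured 14835 and 12766 TPM against 10515 and 10507 TPM. These mitochondrial calls were not stable, with 9 lower after median-ratio scaling, 2 after quantile normalization, 3 after the GC correction and 0 over all 12 libraries, and 2, 3 and 11 without shFto replicate 1, shFto replicate 2 or shScram replicate 2. The nuclear-encoded list had 7 lower over all 12 libraries, 12 and 13 without shFto replicate 1 or 2, and 37 without shScram replicate 1.

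Among the listed non-coding RNAs the largest fall was that of Bc1, a rodent brain cytoplasmic RNA, from 203 and 275 TPM to 3.36 and 4.34 TPM. Gas5, a growth arrest RNA that hosts small nucleolar RNAs, measured 526 and 658 TPM against 219 and 229 TPM, and Neat1, the scaffold of paraspeckles, fell by 1.31. Of 9 small structural and nuclear RNAs in the list 6 fell and 2 rose, or 4 and 0 in the 12-library fit. The annotated class of snRNAs went the other way, with 14 of 20 tested genes higher, 3 lower and a median of 1.21. Rn7sk, the RNA that restrains P-TEFb, was one that rose, from 2.98 and 3.58 TPM to 10.8 and 11.6 TPM, and it was not called over all 12 libraries.

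Stress pathways moved unevenly. Of 27 tested genes of the unfolded protein and amino acid stress responses 17 rose and 3 fell, 1 of them past 2-fold, and Hspa5, the chaperone BiP, measured 457 and 482 TPM against 873 and 865 TPM. The counts were 6 and 1 in the 12-library fit, and 10 and 2 without either shFto library. Of 22 Nrf2 antioxidant genes 9 rose and 3 fell, or 6 and 1 in the 12-library fit, and 1 fell without shFto replicate 1. Hmox1, heme oxygenase 1, measured 47.2 and 46.7 TPM against 232 and 242 TPM (log2 fold change 2.31, SE 0.062, limma, adjusted p = 1.65e-06), and Txnrd1, thioredoxin reductase, rose by 1.14. Nqo1, another classical target of Nrf2, fell from 55.2 and 58.4 TPM to 27.0 and 22.8 TPM. Ftl1, the ferritin light chain, had the largest rise in TPM of the called nuclear genes, from 3629 and 3632 TPM to 7686 and 7924 TPM, but it has many near-identical copies, is uncertain and was not called over all 12 libraries.

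The m6A machinery itself shifted little. Of 22 tested writers, erasers and readers other than Fto, 6 rose and 4 fell, none past 2-fold, with log2 fold changes between -0.48 and 0.58. Mettl3, the catalytic subunit of the methyltransferase, measured 18.8 and 19.8 TPM against 20.2 and 19.7 TPM (log2 fold change 0.04, limma, adjusted p = 0.717), and its sign turned under other scalings. Mettl14, its partner, had 11.9 and 15.2 TPM against 10.0 and 8.76 TPM (log2 fold change -0.48, limma, adjusted p = 0.028). Alkbh5, the other m6A eraser, measured 63.1 and 59.9 TPM against 90.8 and 92.0 TPM (log2 fold change 0.57). Over all 12 libraries 1 member was called higher and 0 lower, without Mettl14 and Alkbh5, and without shFto replicate 1 or 2 the counts were 2 and 1 or 3 and 0.

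Some genes were close to silent in one of the lines. In shFto cells 41 genes had a mean of 3 TPM or more while both shScram libraries were under 0.5 TPM, and 26 genes showed the reverse. Fmo2, a flavin monooxygenase, measured 0.325 and 0.319 TPM in shScram cells and 7.30 and 7.55 TPM in shFto cells. Olr1, the receptor for oxidised LDL, measured 0.197 and 0.175 TPM against 7.10 and 6.70 TPM, and Tll1, a metalloproteinase that matures matrix proteins, 0.471 and 0.314 TPM against 10.6 and 9.79 TPM. Nsg1, a neuronal endosomal protein that overlaps Stx18 on the other strand, was listed at 0 in both shScram libraries and at 13.4 and 12.5 TPM in shFto cells. In the other direction Abi3bp, a matrix protein, measured 30.7 and 22.8 TPM against 0.472 and 0.441 TPM. Ppp1r1b, a phosphatase inhibitor with a gene on its other strand, measured 8.31 and 8.14 TPM and was listed at 0 in both shFto libraries.

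Among the genes with the largest changes at moderate or high levels, Prg4, the joint lubricant lubricin, rose from 12 and 11.4 TPM to 225 and 230 TPM (log2 fold change 4.17, SE 0.07, limma, adjusted p = 8.44e-07), and it overlaps Tpr on the other strand. Its log2 fold change was 0.94 at the Pre stage and 6.18 at the Diff stage. Klhl4, a kelch-domain protein, fell from 50.4 and 44.3 TPM to 1.09 and 1.47 TPM. Among further falls, Aldh3a1, an aldehyde dehydrogenase, measured 82.9 and 63.2 TPM against 4.34 and 4.43 TPM, and Cbr2, a carbonyl reductase, 233 and 223 TPM against 18.7 and 17.4 TPM. Krt15, a keratin, measured 248 and 311 TPM against 21.3 and 23.2 TPM, and Ear2, an eosinophil-associated ribonuclease, 161 and 176 TPM against 12.8 and 11.5 TPM. At high level, S100a10, the annexin A2 partner, fell from 2955 and 2844 TPM to 942 and 876 TPM.

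Genes changed past 2-fold at the MCE stage were compared with the Diff stage, whose libraries are separate but come from the same lines. Of 822 higher genes 787 (95.7%) had the same sign at Diff, 474 (57.7%) were past 2-fold the same way and 5 past 2-fold the opposite way. Of 651 lower genes 594 (91.2%) had the same sign, 284 (43.6%) were past 2-fold the same way and 10 the opposite way. Over all tested genes, called or not, the sign was the same for 71.6% of those above 0 and 73.8% of those below 0 at the MCE stage. The size of the effect differed by the interaction test for 295 of the higher genes (35.9%) and 206 of the lower genes (31.6%). Over all tested genes the effect differed between the stages for 2623 (19.6%), more positive at MCE for 1434 and more negative for 1189. Exons on the opposite strand overlapped 215 of the higher and 130 of the lower genes past 2-fold. Among the genes named here, Cxcl10, Fen1, H2ac13, Slc2a1, Gapdh, Plin4, Glul, Cox6c, Rps28, Fst, Tgfb2 and Mt2 have such an overlap and are uncertain to that extent.

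**Figure D4:**
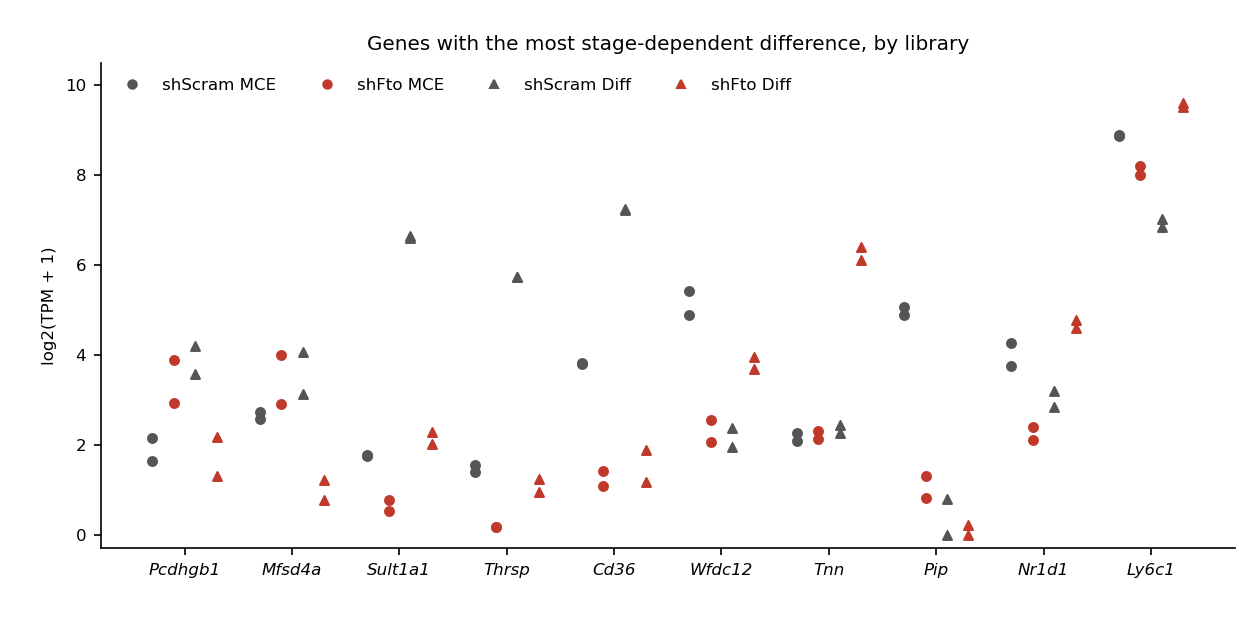
Level on the log2(TPM + 1) scale of the 10 genes with the largest difference in shFto effect between the MCE and Diff stages, each library a point, by line and stage. Cd36, Thrsp and Sult1a1 rise in shScram cells by the Diff stage and stay low in shFto cells, and Tnn and Ly6c1 are high in shFto cells at the Diff stage.

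Among the nuclear chromosomes, chromosome 3 had the lowest median. Its 668 tested genes had a median log2 fold change of -0.14, with 17.4% higher and 34.9% lower, against 30.8% and 19.1% over all genes. The median was -0.29 at the Pre stage and -0.24 at the Diff stage. Each shFto library against each shScram library gave -0.176, -0.0997, -0.197 and -0.113 on chromosome 3 and 0.080, 0.135, 0.0691 and 0.124 on the other nuclear chromosomes. Between replicates, chromosome 3 gave 0.0813 in shScram and 0.0170 in shFto cells, against 0.0548 and 0.0109 elsewhere. The lower level extended over most of the chromosome, with 11 of its 12 runs of 50 neighbouring genes below 0, against 58 of 248 runs in all. The last run, which ends at position 144597680, had a median of 0.043, and the tested genes beyond it were in no run. Correction for GC content left the median of chromosome 3 at -0.21. Chromosomes 7 and 19 had the highest medians, 0.198 and 0.208, which became 0.0962 and 0.0927 after that correction. The correction also recentred the libraries, with a median over all genes of 0.00083 after it. Median-ratio scaling, which has no GC term, gave -0.232 for chromosome 3 and 0.110 and 0.117 for chromosomes 7 and 19. The part of GC content in these shifts was not tested.

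**Figure D5:**
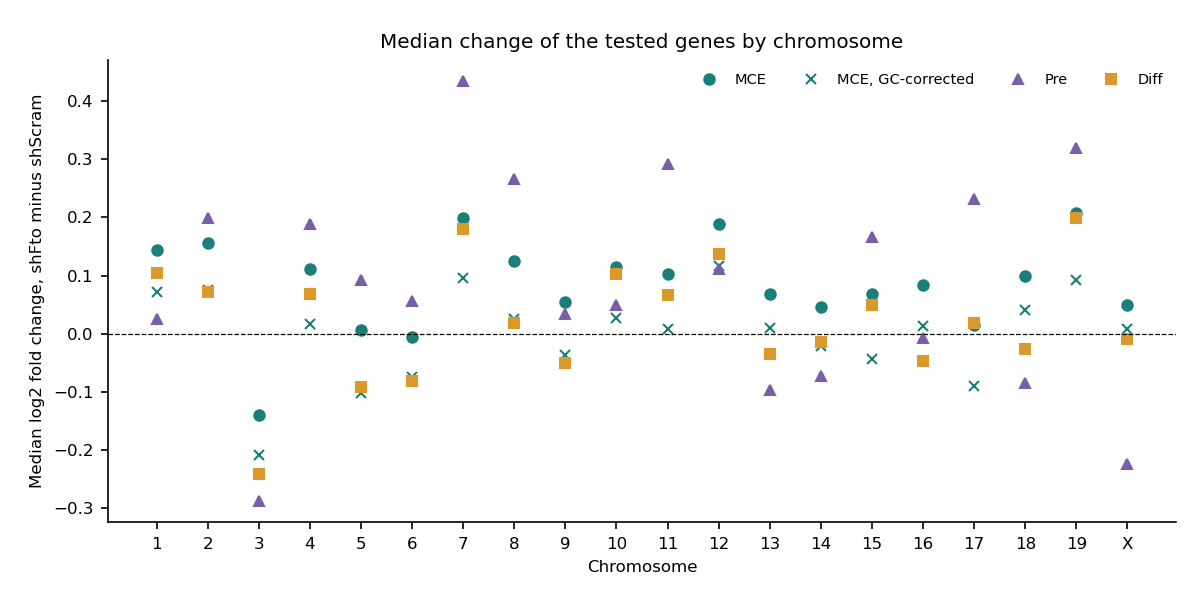
Median log2 fold change of the tested genes of each chromosome at the MCE stage, as deposited and after the GC correction, and at the Pre and Diff stages. Chromosome 3 is below 0 in all 4 series, at -0.14, -0.21, -0.29 and -0.24.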

How the data were processed

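Transcript levels were measured in 3T3-L1 cells carrying the control or the Fto hairpin, in 12 libraries grouped by their titles (2 for each of 6 groups, over 3 stages). Per the submitters' processing notes and the study's methods, reads were trimmed (Trim Galore 0.6.5) and aligned to GRCm38 (HISAT2 2.1.0), and the authors deposited one TPM value for each gene, made with StringTie 2.1.4 on Ensembl release 102 gene models. The authors used DESeq2 1.30.1 on counts for their own comparisons. Such counts were not used here. Since TPM is a share, sequencing depth cannot be read from it and is unknown, and the number of libraries limits the precision. The 12 libraries held 20853 to 24018 genes above 0 TPM. Strand use in counting is not given in the sources used here.

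The values were used as log2(TPM + 1), which understates the change of low genes. Genes with a TPM of 1 or more in 2 of the 4 MCE libraries were fitted on these 4 libraries with limma 3.58.1 in R 4.3.3 (group means, trended eBayes, 2 residual degrees of freedom), two-sided, with Benjamini-Hochberg adjustment and a threshold of 0.05. An exact permutation of 2 against 2 libraries cannot reach this threshold and was not run. The MCE minus Diff interaction was fitted on 8 libraries. Summaries and figures were made in Python 3.11.15 (pandas 2.3.3, numpy 2.4.6, scipy 1.17.1, matplotlib 3.10.9). The MCE fit was also run on simulated data, and the interaction fit was not. It called 62 of 100 genes with a simulated log2 change of 1 and 89 of 100 with a change of 2. Of 13169 unchanged genes it called 7. No column of another series was present. GENCODE M21 gave positions, and 13346 tested genes matched.

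The comparison, the named-gene rule and 63 gene lists were chosen with earlier results of these data known. Lists are described by counts and medians, with no list test. Named genes were the 12 highest and 12 lowest called genes at 5 TPM or more on average whose lines did not overlap, the 8 largest rises and falls in TPM, 8 each way under 0.5 TPM in the other line, up to 3 called higher and 3 called lower members per list, further list members described within their list, the 5 largest interactions each way and the neighbours of Fto, the last added later. Alternatives were another pseudocount, other filters, 3 scalings, other sets of libraries, a replicate block, other estimates of the spread and each library left out. A few list members are not reported here by name.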

Additional observations from a re-analysis of the deposited data

Results flagged for a closer look

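The effect of shFto differed between the MCE and Diff stages for 2623 of 13369 genes (limma interaction). The 5 largest differences of each sign, on the log2(TPM + 1) scale, among genes with a mean of 5 TPM or more are given here as values.

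Pcdhgb1, a protocadherin of a cluster of close copies, had a difference of 3.66, from 2.09 and 3.41 TPM (shScram) against 13.8 and 6.59 TPM (shFto) during MCE, and 10.9 and 17.3 TPM against 3.55 and 1.48 TPM later. Mfsd4a, a transporter, had 3.41, but its MCE change did not pass (limma, adjusted p = 0.0713) and its shFto libraries were uneven, at 15.1 and 6.53 TPM. Sult1a1, a sulfotransferase, had 3.37, with 99.9 and 95.8 TPM in shScram cells at the Diff stage against 3.84 and 3.03 TPM. Thrsp, a lipogenic regulator, had 3.33, with 52.5 and 52.0 TPM against 1.37 and 0.939 TPM at that stage. The fatty acid transporter Cd36 had 3.15, with 13 and 12.8 TPM against 1.65 and 1.11 TPM during MCE and 148 and 151 TPM against 2.71 and 1.24 TPM at the Diff stage.

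Wfdc12 had -4.52, with 28.8 and 41.8 TPM against 3.15 and 4.82 TPM during MCE and 2.88 and 4.19 TPM against 14.5 and 11.8 TPM at the Diff stage. Tnn, a tenascin, had -3.87, with no call at the MCE stage (log2 fold change 0.05, limma, adjusted p = 0.825) and 3.78 and 4.41 TPM against 68.4 and 83.9 TPM at the Diff stage. Pip had -3.64, with 28.7 and 32.6 TPM against 1.46 and 0.759 TPM during MCE and at most 0.725 TPM in the 4 libraries of the Diff stage. Nr1d1, a repressor of the clock, had -3.44, with 18.2 and 12.5 TPM against 3.29 and 4.25 TPM during MCE and 8.18 and 6.11 TPM against 23.2 and 26.4 TPM at the Diff stage. It overlaps Thra on the other strand. Ly6c1 had -3.40, with 466 and 476 TPM against 293 and 257 TPM during MCE and 114.5 and 129.9 TPM against 733 and 781 TPM at the Diff stage.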

How the results depend on the processing

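With all 12 libraries in the fit the calls at the MCE stage fell to 1742 higher and 1178 lower, and the interaction to 280 genes. With the 8 MCE and Diff libraries in the fit the MCE calls were 4091 higher and 2541 lower. With a mean TPM of 5 or more required, 521 genes were past 2-fold higher and 388 lower. With no filter 26426 genes were tested and 2883 and 1709 called. Leaving out each library in turn gave 2546 to 4402 higher and 1611 to 2707 lower, 838 to 883 and 659 to 695 past 2-fold, and 1357 to 2664 interactions. The low values came without shFto replicates 1 and 2 of the MCE stage and, for the interaction, also without those of the Diff stage. Each leaves a line with 1 library, which is assumed to vary like the rest. The replicate numbers did not pair the libraries (correlation of deviations -0.00595), and the replicate block gave 4443 higher and 2859 lower and 2267 interactions. Of 363 named genes, 355 were called, 238 gave the same call in all 15 alternatives and 3 turned in sign, none of them called. Tnn had -0.029 after median-ratio scaling, -0.060 after the GC correction and -0.039 to 0.13 with a library left out. Mettl3 had -0.050, -0.063 and -0.029 under median-ratio scaling, quantile normalization and the GC correction, and Chd9 -0.17 to 0.11 with a library left out. The cause of these changes was not tested. The unknown depth limits what can be said of genes near 0 TPM.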
